A study of Mus musculus with 53 samples.

Results

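Polycomb repressive complex 1 (PRC1) is described here through 9 of its subunit genes, Cbx2, Cbx7, Cbx8, Bmi1, Pcgf2, Ring1, Rnf2, Phc1 and Phc2, in mouse embryonic stem (ES) cells and the cells they give rise to. Members were the probe sets annotated with exactly 1 of these gene symbols, and each gene was read from its lead probe set, the one with the highest mean signal over all arrays. This gave 9 genes on 20 probe sets, of 18193 genes and 45037 probe sets on the array. The study hybridised RNA from 53 samples in 15 groups to Affymetrix 3′ expression arrays, to compare ES cells lacking Ezh2 or Eed, subunits of Polycomb repressive complex 2 (PRC2), with wild-type cells before and during differentiation.

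Undifferentiated wild-type ES cells (day 0) gave 7 arrays, 2 from line J1, 2 from CJ7 and 3 from E14tg1. Wild-type cells taken after leukemia inhibitory factor (LIF) was withdrawn gave 4 arrays at day 2, 5 at day 6 and 2 at day 8, from J1 and CJ7 at days 2 and 6 and from CJ7 at day 8. Ezh2-null ES cells gave 6, 4, 5 and 2 arrays at days 0, 2, 6 and 8, and Eed-null ES cells gave 5, 2 and 2 arrays at days 0, 2 and 6. The other groups were mesoendodermal cells marked by green fluorescent protein under the brachyury (T) promoter (T-GFP, 2 arrays), neuronal progenitors marked by Sox1-GFP (3 arrays), neuronal stem cells derived from progenitors (2 arrays) and mouse embryonic fibroblasts (MEF, 2 arrays). The parental line of the mutants is not named in the labels, so genotype and line cannot be told apart. ES cells were grown on feeder cells and depleted of them by brief plating. Replicates are labelled as biological, with no statement of separate cultures or derivations, so p-values measure the spread between these samples.

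PRC1 binds chromatin and ubiquitinates histone H2A. Its catalytic core pairs Ring1 or Rnf2 with a Pcgf protein, such as Bmi1 or Pcgf2. In canonical PRC1 a Cbx protein reads the histone H3 lysine 27 methylation that PRC2 deposits, and a Phc protein links complexes through its SAM domain. Cbx7 is known as the main Cbx protein of ES cell PRC1, and Cbx2 and Cbx8 as ones that take its place during differentiation.

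The 250 bases before an annotated start are shown for 3 members: Cbx7 and Phc1, which fell together, and Bmi1, which rose. For Phc1 and Bmi1 that start is the outer end of the annotated gene, whereas for Cbx7 it is not. They come from RefSeq (GRCm38.p6), run 5′ to 3′ on the gene's strand, and have each CG dinucleotide in capitals. The windows are chr15:79932647-79932896 on the minus strand for Cbx7, chr6:122340228-122340477 on the minus strand for Phc1 and chr2:18676768-18677017 on the plus strand for Bmi1.
Cbx7: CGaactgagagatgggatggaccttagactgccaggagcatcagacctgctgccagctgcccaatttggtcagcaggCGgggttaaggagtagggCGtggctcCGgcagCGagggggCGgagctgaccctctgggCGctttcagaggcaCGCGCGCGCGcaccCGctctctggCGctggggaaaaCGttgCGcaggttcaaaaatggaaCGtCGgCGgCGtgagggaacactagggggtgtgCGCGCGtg
Phc1: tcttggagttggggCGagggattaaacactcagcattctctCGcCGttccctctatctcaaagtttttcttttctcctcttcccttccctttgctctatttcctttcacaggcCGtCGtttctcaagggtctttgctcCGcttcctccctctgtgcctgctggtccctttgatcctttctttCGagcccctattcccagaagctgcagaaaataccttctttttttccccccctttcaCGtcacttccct
Bmi1: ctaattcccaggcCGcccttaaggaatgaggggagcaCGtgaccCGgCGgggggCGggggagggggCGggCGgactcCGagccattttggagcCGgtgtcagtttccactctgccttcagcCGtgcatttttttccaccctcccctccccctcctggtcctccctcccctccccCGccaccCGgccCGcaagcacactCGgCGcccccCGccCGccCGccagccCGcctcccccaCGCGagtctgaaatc

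Cbx7 and Bmi1 held 23 and 21 CG dinucleotides, numbers reached by 13.3% and 16.3% of 32851 such windows, whose median was 6. Phc1 held 8, a number reached by 43% of windows. The windows shown for the genes that fell together thus differed in CG content, but they stand before unlike kinds of start. The 4 motifs searched on both strands were the E-box CACGTG (in 6.02% of all windows), the GC box GGGCGG (32.7%), the octamer ATTTGCAT (1.6%) and the TATA box TATAAA (12.4%). Bmi1 held the E-box and the GC box, Cbx7 held the GC box and Phc1 held none of the 4. Promoter windows were found for 8 of the 9 members, all but Cbx2.

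The identity of the groups was checked on markers. Ezh2 signal was 1451 ± 247 (SD, n = 7) in wild-type day 0 cells and 214 ± 31.6 (n = 6) in Ezh2-null cells, whose arrays lay below the wild-type arrays of the same day throughout. The Eed probe set gave 2956 ± 129.9 (n = 5) in Eed-null against 2536 ± 276 in wild-type day 0 cells, so it does not check that label. T-GFP cells had Mixl1, Sox1-GFP cells had Sox1, and MEF had Col1a1 among their markers. The summed signal of the 7 mesoendoderm markers measured was 4189 to 5486 in T-GFP cells and 2104 to 6401 at wild-type day 6. That sum does not set T-GFP cells apart from wild-type day 6 cells. Neuronal stem cells had Fabp7 at 5820.2 ± 228 (n = 2). In them Sox1, listed here as a marker of progenitors and not of neural stem cells, was at 43.5, below the array medians. The Pou5f1 signal was 4089.7 in wild-type day 0 cells, 1463 in T-GFP cells, 687 in Sox1-GFP cells and 27.3 in neuronal stem cells. Array medians ran from 50.5 to 63.0. The precision is limited by how few arrays some groups hold.

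A division of the arrays, whose origin the labels do not give, touches the values at days 2 and 6. Differences between pairs of probe sets for the same gene separated 14 arrays from all others: replicates 3 and 4 of wild-type and Ezh2-null cells at day 2, their replicates 3 to 5 at day 6, and all 4 Eed-null arrays of those days. They are called the second array set here. Within wild-type cells the division follows line as well, with CJ7 in the second set and J1 in the first, apart from 1 J1 array at day 6, so set and line can hardly be told apart there.

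In undifferentiated wild-type cells the lead probe sets of Phc1, Rnf2 and Cbx7 read 3002 ± 259, 1337 ± 121 and 1027 ± 153 (SD, n = 7). Cbx2 read 290.1 ± 39.1, Phc2 225 ± 44.5, Pcgf2 164 ± 15.5, Bmi1 139 ± 53 and Ring1 60.0 ± 12.7. Signals of different probe sets depend on the probes, so the genes are compared by their changes and not by these levels. A gene was called where limma's adjusted p was under 0.05 and the change was at least 2-fold on the log2(signal + 32) scale. Of the 9 members, 8 passed the filter on low signals and were tested among 13807 genes, and Cbx8 did not pass.

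**Figure D1:**
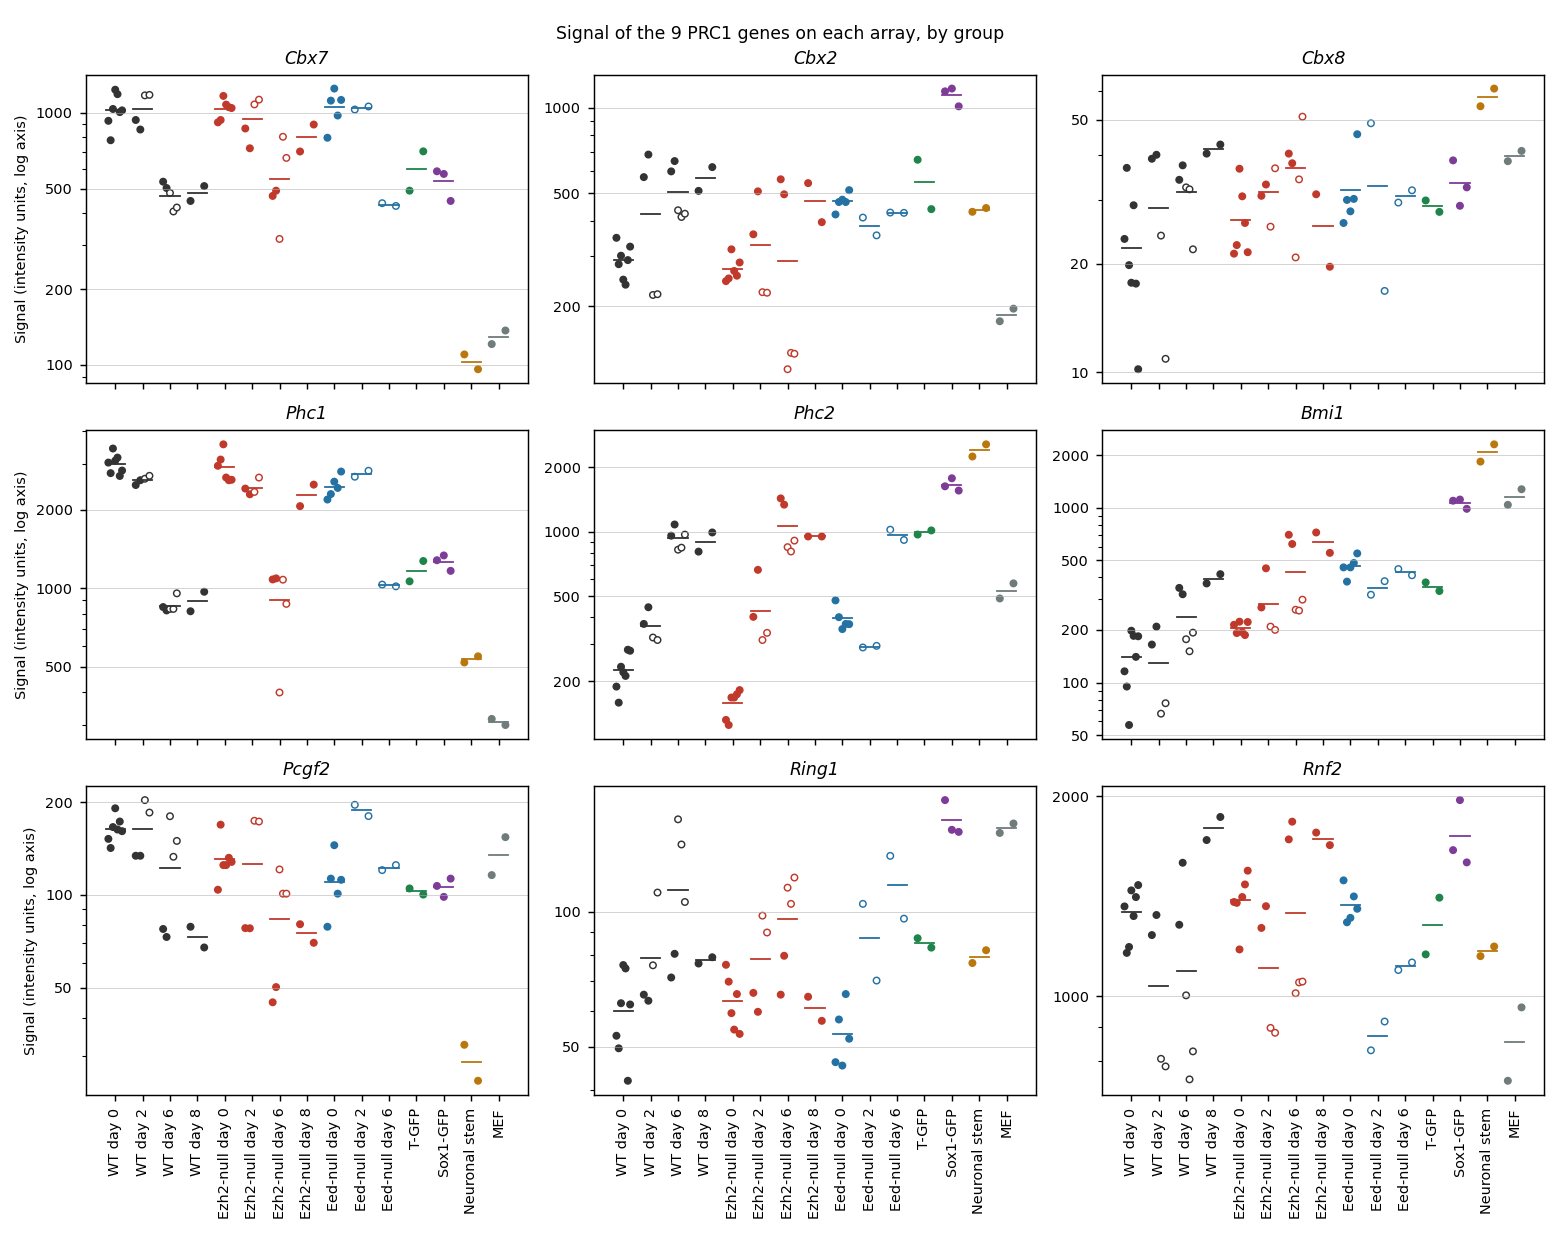
Signal of the lead probe set of each member (log axis, intensity units) on all 53 arrays by group (WT, wild type), with horizontal bars at group means and open points for arrays of the second set. Cbx7 and Phc1 are lowest in neuronal stem cells and MEF, Phc2 and Bmi1 are highest in neuronal stem cells, and Cbx2 is highest in Sox1-GFP cells at 1010 to 1166.

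Wild-type differentiation lowered Phc1 and Cbx7 and raised Phc2 by day 6, with a Bmi1 rise called at day 8. At day 6, 3 of 8 tested members were called, 1 higher and 2 lower, beside 10.3% of all genes tested. At day 8 it was 4 of 8, 2 in each direction, beside 11.4% of all genes. At day 2 none of the 8 was called, beside 3.43% of all genes. An unadjusted p under 0.05 was found for 2 of them, beside 5958 of all 13807 genes. The median change of the 8 was 0.00, 0.14 and 0.34 on the log2 scale at days 2, 6 and 8, against 0.00, 0.04 and 0.05 over all genes.

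Cbx7, the chromodomain subunit of ES cell PRC1, had signals of 929, 778, 1035, 1234, 1185, 1006 and 1022 at day 0. At day 2 it still read 936, 858, 1172 and 1177. By day 6 the signal had dropped to 533, 503, 481, 406 and 421, and at day 8 it read 447 and 512. The day 2 arrays lay within the day 0 range, and the day 6 and day 8 arrays all lay below it. The log2 change from day 0 was 0.01 ± 0.15 (SE) at day 2, with an adjusted p of 0.96. It was -1.07 ± 0.14 at day 6 (2.10-fold, adjusted p = 2e-08) and -1.04 ± 0.19 at day 8 (2.06-fold, adjusted p = 2.5e-05). Both sit close to the 2-fold threshold. The day 6 change was -0.93 ± 0.15 (adjusted p = 3.2e-06) from the first array set, not called, and -1.17 ± 0.16 from the second. With a pseudocount 4 times larger the changes were -0.95 and -0.92, neither called, and the day 8 value became -0.99 without wild-type day 0 replicate 4 and -0.95 without day 8 replicate 1. In these bulk samples, fewer cells of a type and less RNA per cell cannot be told apart.

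The 3 probe sets of Cbx7 disagreed. Across the 15 group means the second followed the lead with r = 0.71, while the third had r = -0.14. That dimmer probe set read 28.6 to 54.7 at day 0 and 86.2 to 122 at day 6 in wild-type cells, and so moved the opposite way. When the 3 probe sets were averaged, the day 6 change of Cbx7 was -0.16 (adjusted p = 0.18) and the day 8 change -0.26 (adjusted p = 0.13). The second probe set, at 78.4 to 140.1 on wild-type day 0 arrays, read 50.6 and 57.6 at day 8. At day 6 it read 54.5 and 69.9 in the first array set, also below day 0. In the second array set it read 235 and 214 at day 2, and its day 6 arrays lay within the day 0 range. The calls of Cbx7 at days 6 and 8 thus rest on the brightest probe set, although the second was also lower at day 8.

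Cbx2, the Cbx paralogue reported to replace Cbx7, read 348, 281, 301, 248, 238, 290 and 324 at day 0. At day 2 it read 569 and 683 in the first array set and 219 and 220.4 in the second. The day 6 arrays gave 596 and 648 in the first set and 435, 412 and 423 in the second, and at day 8 it read 509 and 617. All day 6 and day 8 arrays lay above the day 0 arrays, whereas the day 2 arrays lay on both sides. The log2 change was 0.72 ± 0.25 at day 6 (1.64-fold, adjusted p = 0.013) and 0.89 ± 0.34 at day 8 (1.85-fold, adjusted p = 0.032), under the 2-fold threshold in both. With the array set as a block, the day 6 change was 1.40 ± 0.14 (adjusted p = 2.8e-11). It was 1.03 ± 0.13 from the first set only and 0.51 ± 0.10 from the second (adjusted p = 4.8e-05), both under the block value. The block takes 1 set shift for all groups. For Cbx2 the second set minus the first was -0.52 at wild-type day 6 but -1.78 in Ezh2-null day 6 cells. At day 2 the direction depended on the set, at 1.03 ± 0.13 (adjusted p = 6e-07) from the first and -0.35 ± 0.12 (adjusted p = 0.014) from the second. The dimmer Cbx2 probe set read 74.8 to 102 at day 0, 114 to 120.1 at day 2 and 110.1 to 165 at day 6, above day 0 in both array sets.

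Cbx8, a further Cbx paralogue of canonical PRC1, was at or below the array median on all 53 arrays and was therefore not tested. Its lead probe set averaged 22.1 ± 8.68 (n = 7) in wild-type day 0 cells and 31.6 ± 5.81 (n = 5) at day 6. The highest group was neuronal stem cells, with 54.5 and 61. Both lay above all wild-type day 0 arrays (10.2 to 36.8). With no filter on low signals the change in neuronal stem cells was 0.75 ± 0.16 (limma, adjusted p = 0.00015), under 2-fold.

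**Figure D2:**
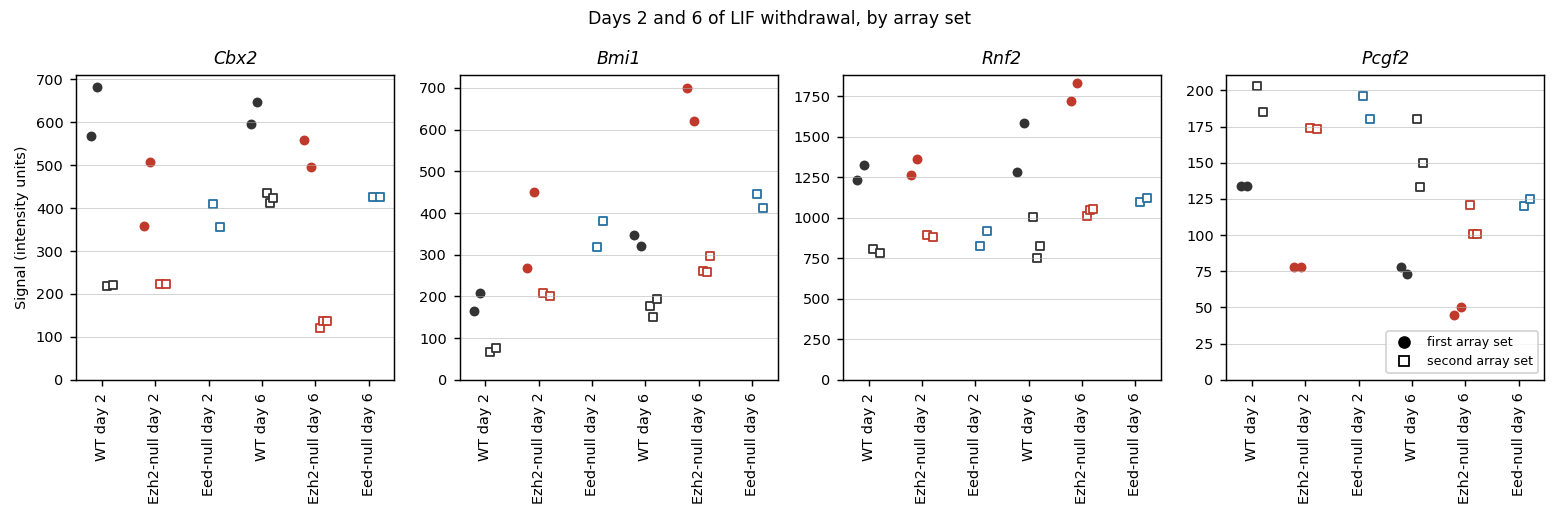
Signal of Cbx2, Bmi1, Rnf2 and Pcgf2 (linear axis from 0, intensity units) at days 2 and 6 of LIF withdrawal (WT, wild type), with filled circles for the first array set and open squares for the second. Cbx2, Bmi1 and Rnf2 are lower and Pcgf2 is higher in the second set within each genotype and day that has both.

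Phc1, a polyhomeotic subunit with a SAM domain, ranged from 2696 to 3435 at day 0, with 2604 ± 88.1 (n = 4) at day 2. At day 6 it read 848, 823, 834, 834 and 957, and at day 8 it read 817 and 970. No day 6 or day 8 array reached the day 0 range. The change was -1.77 ± 0.13 at day 6 (3.40-fold lower, adjusted p = 3.2e-15) and -1.71 ± 0.18 at day 8 (adjusted p = 1.7e-10).

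Its paralogue Phc2 read 189, 159, 234, 220, 212, 281 and 278 at day 0. It read 371, 444, 320.5 and 312 at day 2, all above day 0, a change of 0.62 ± 0.15 (1.54-fold, adjusted p = 0.0011). Day 6 arrays gave 959, 1082, 825, 843 and 970.5, and at day 8 it read 808 and 993. The groups did not overlap, and the changes were 1.93 ± 0.14 (3.80-fold, adjusted p = 1.6e-15) and 1.87 ± 0.19 (adjusted p = 9.3e-11). The 2 probe sets of Phc2 followed each other with r = 0.98 over the group means.

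Bmi1, the Pcgf subunit also named Pcgf4, read 116, 95, 57, 198, 185, 140 and 184 at day 0. It read 165 and 209 at day 2 in the first array set and 66.4 and 76.2 in the second. At day 6 it read 348 and 320 in the first set and 177, 151 and 193 in the second, and only the first set lay wholly above the day 0 range. The day 6 change was 0.66 ± 0.23 (adjusted p = 0.013), and 1.23 ± 0.16 (adjusted p = 1.3e-08) with the set as a block. It was 1.16 ± 0.22 (adjusted p = 4e-05) from the first set and 0.33 ± 0.17 (adjusted p = 0.086) from the second, both under the block value. Against day 0 replicates 4 to 7 it was 0.32 ± 0.24 (adjusted p = 0.28), and in CJ7 alone 0.50 ± 0.35 (adjusted p = 0.25). At day 8 it read 369 and 417, above all day 0 arrays, a change of 1.38 ± 0.32 (2.59-fold, adjusted p = 0.00044).

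Pcgf2, a paralogue of Bmi1 also known as Mel18, ranged from 142 to 191 at day 0 and read 79 and 68 at day 8. The change of -0.89 ± 0.23 passed the p threshold (adjusted p = 0.0013) but not the fold threshold. Its day 6 mean was 75.3 in the first array set and 154 in the second. Neither ubiquitin ligase was called: Rnf2 changed by -0.34 ± 0.15 at day 6 (adjusted p = 0.052) and 0.42 ± 0.20 at day 8 (adjusted p = 0.098). Its day 6 change was 0.10 ± 0.11 from the first array set, -0.62 ± 0.09 (adjusted p = 2.4e-07) from the second and 0.07 ± 0.08 with the set as a block. Ring1 was 0.61 ± 0.13 higher at day 6 (1.53-fold, adjusted p = 8.2e-05), with 75.9 in the first set and 135 in the second.

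The other genes of the PRC1 family, a list of 17 of which 15 were tested, held 1 called higher and 1 lower at day 6, and 3 higher and 1 lower at day 8. At day 2 the 2 called were Yaf2 and Bcor, subunits of variant PRC1. Bcor fell by 1.08 on the log2 scale (SE 0.20), with overlapping arrays, and Yaf2 rose by 1.03 ± 0.12 at day 2 and by 1.59 ± 0.12 at day 6. Pcgf6, the Pcgf protein of a variant complex active in ES cells, fell by 1.20 on the log2 scale at day 6 (SE 0.10, adjusted p = 3.1e-13). Phc3, the third polyhomeotic gene, rose by 1.05 ± 0.16 at day 8, as did Auts2, a partner of variant complexes, by 1.31 ± 0.25.

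Both PRC2 mutants showed the Phc1 fall and the Phc2 rise between day 0 and day 6. In Ezh2-null cells 2 of 8 members were called beside 16.3% of all genes, and in Eed-null cells 3 of 8 beside 10.1%. Within Eed-null cells all day 0 arrays are of the first set and all day 6 arrays of the second, so day and set cannot be told apart. Phc1 changed by -1.73 ± 0.13 in Ezh2-null (adjusted p = 1.1e-14) and -1.23 ± 0.19 in Eed-null cells (adjusted p = 1.3e-06). Cbx7 changed by -1.21 ± 0.20 in Eed-null cells (adjusted p = 7.5e-06), with 438 and 427 at day 6 against 796 to 1247 at day 0. With the mean of all its probe sets that change was -0.62 (adjusted p = 0.00061), not called. In Ezh2-null cells Cbx7 read 468, 491, 316, 803 and 662 at day 6 against 916 to 1166 at day 0, a change of -0.93 ± 0.15 (adjusted p = 5e-07) that fell short of 2-fold. It was -1.08 without Ezh2-null day 6 replicate 4 and -1.01 without replicate 5, the highest arrays.

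Phc2 read 132, 125, 168, 168, 174 and 182 in Ezh2-null day 0 cells and 1433, 1340, 848, 809 and 910 at day 6. In Eed-null cells it read 478, 399, 351, 371 and 370 at day 0 and 1023 and 916 at day 6. The day 6 levels overlapped between the genotypes, while the day 0 levels were lowest in Ezh2-null and highest in Eed-null cells. The interaction of genotype and day was 0.58 ± 0.20 for Ezh2-null (adjusted p = 0.04) and -0.69 ± 0.24 for Eed-null cells (adjusted p = 0.042). Both are under 2-fold, and both share the wild-type arrays. For Ezh2-null cells it was 0.86 (adjusted p = 0.013) from the first array set, but 0.39 (adjusted p = 0.066) from the second, 0.53 (adjusted p = 0.12) with a replicate block and 0.65 (adjusted p = 0.12) against CJ7 alone. For Eed-null cells it was -0.55 (adjusted p = 0.12) against wild-type day 0 replicates 4 to 7 and -0.62 (adjusted p = 0.19) against CJ7 alone. Leaving out single arrays moved the adjusted p between 0.019 and 0.091 for Ezh2-null and between 0.029 and 0.2 for Eed-null cells. No member was called for either interaction, beside 3.09% and 4.69% of all genes. In each, 2 members had an unadjusted p under 0.05, beside 3872 (Ezh2-null) and 4294 (Eed-null) of all 13807 genes.

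Ezh2-null and wild-type cells did not differ by a called amount in any member at days 0, 2 and 6. The shares of all genes called were 0.0507%, 0.123% and 3.03%. An unadjusted p under 0.05 was found for 2, 1 and 3 of the 8 members, beside 1480, 1262 and 4798 of all 13807 genes. At day 0 the Cbx7 difference was 0.02 ± 0.13, with a 95% confidence interval of -0.26 to 0.29, and the Phc1 difference was -0.05 ± 0.12 (-0.30 to 0.20). Bmi1 differed by 1.00 ± 0.28 at day 2 (adjusted p = 0.071), and by 1.23 (adjusted p = 0.022) without wild-type day 2 replicate 2. With same-numbered arrays as pairs (replicate block) it was 1.00 ± 0.12 (adjusted p = 0.021), just short of 2-fold. At day 6 Bmi1 was 0.71 ± 0.25 higher (1.63-fold, adjusted p = 0.032), with 700 and 620 against 348 and 320 in the first set and 261, 258 and 298 against 177, 151 and 193 in the second. Within each set every Ezh2-null array lay above the wild-type arrays, and the replicate block gave 0.71 ± 0.10 (adjusted p = 0.0022).

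Cbx2 was the member whose mutant level depended most on the array set. At day 6 it read 559 and 495 in Ezh2-null cells of the first set and 120, 137 and 136 in those of the second. The wild-type arrays read 596 and 648, and 435, 412 and 423, so the Ezh2-null arrays were lower in both sets. Over all arrays the difference was -0.98 ± 0.27 (1.97-fold, adjusted p = 0.005). It was -1.48 ± 0.12 (adjusted p = 4.3e-12) in the second set and -0.23 ± 0.17 (adjusted p = 0.46) in the first. It also passed 2-fold without wild-type replicate 3, 4 or 5 (-1.02, -1.04 and -1.03) and without Ezh2-null replicate 1 or 2 (-1.27 and -1.23). The Cbx2 interaction was -0.89 ± 0.36 (adjusted p = 0.083), -1.39 ± 0.15 (adjusted p = 3.2e-09) in the second set and -0.14 ± 0.19 (adjusted p = 0.76) in the first, and -1.18 and -1.14 without Ezh2-null day 6 replicates 1 and 2. The dimmer Cbx2 probe set read 79.1 to 115 in Ezh2-null and 110.1 to 165 in wild-type day 6 cells.

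At day 8, Ezh2-null cells held Phc1 above wild type, 1 of 8 members called beside 1.06% of all genes. Phc1 read 2066 and 2498 in Ezh2-null and 817 and 970 in wild-type cells, a difference of 1.32 ± 0.22 (2.50-fold, adjusted p = 0.00018). Cbx7 read 702 and 898 against 447 and 512, also without overlap, but its difference of 0.70 ± 0.24 did not pass (adjusted p = 0.13). Phc2 differed by 0.08 ± 0.24, with an interval of -0.39 to 0.56. The summed signal of 8 ES cell markers, all 8 measured and above the array median, was 15807 to 17629.8 in Ezh2-null and 5364 to 6502 in wild-type day 8 cells. The part of undifferentiated cells in the Phc1 difference was not tested. Phc1 at day 6 read 1082, 1092, 399, 1080 and 872 in Ezh2-null cells, on both sides of the wild-type arrays. The same marker sum at day 6 was 2048 to 11662 in Ezh2-null and 4321 to 5826 in wild-type cells.

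Eed-null cells had more Bmi1 signal than wild type before differentiation. At day 0 Bmi1 read 456, 378, 456, 483 and 548 in Eed-null cells against 57 to 198 in wild-type cells, with no overlap. The difference was 1.59 ± 0.23 (3.02-fold, adjusted p = 5e-07), the only member called of 8, beside 2.26% of all genes. Phc2 was 0.74 ± 0.14 higher (1.67-fold, adjusted p = 3.5e-05) and Cbx2 0.64 ± 0.25 higher (1.56-fold, adjusted p = 0.036), both without overlap. Pcgf2 was lower by -0.48 ± 0.17 (adjusted p = 0.019), while Cbx7 differed by 0.03 ± 0.14, with an interval of -0.25 to 0.32. Of the calls over all genes 67.3% were higher in Eed-null cells, and 41.3% when each array was centred on its median.

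Fibroblast markers also moved in this comparison. The summed signal of the 11 of 12 markers measured was 529 to 2348 in wild-type and 9042, 5239.9, 4572, 5216 and 701 in Eed-null day 0 cells, replicates 1 to 5, against 41188 to 48064 in MEF. No marker of this list was at 0. Bmi1 was 1039 and 1276 in MEF, higher than in ES cells. Eed-null replicate 5 had the lowest marker sum of its group, within the wild-type range, and the highest Bmi1 signal, 548. In that array Phc2 read 370 and Cbx2 read 512, both above all wild-type day 0 arrays. The part of fibroblasts in the differences of these genes was not tested.

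At day 2 Bmi1 read 318 and 380 in Eed-null cells, above 165, 209, 66.4 and 76.2 in wild-type cells, a difference of 1.34 ± 0.34 (adjusted p = 0.015). This was 1 of 8 members, beside 1.04% of all genes, and it did not pass without either Eed-null array, at 1.46 (adjusted p = 0.11) and 1.22 (adjusted p = 0.22). At day 6 it read 446 and 411 against 151 to 348, a difference of 0.83 ± 0.33 (adjusted p = 0.083). No member was called at day 6, beside 3.1% of all genes. Of the 8 members 1 had an unadjusted p under 0.05, beside 3843 of all 13807 genes. All Eed-null arrays of these days belong to the second set. Against wild-type arrays of that set, Bmi1 was higher by 1.88 ± 0.24 at day 2 (adjusted p = 1.8e-06) and 1.17 ± 0.22 at day 6 (adjusted p = 0.00015).

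The mutants also differed from each other at day 0, with 2 of 8 members called, both at lower signal in the Ezh2-null cells. Of all genes 2.2% were called, and 1.43% lower. Phc2 differed by -1.17 ± 0.14 (2.24-fold, adjusted p = 2.3e-08) and Bmi1 by -1.06 ± 0.24 (2.08-fold, adjusted p = 0.00047), with no overlap for either gene. Without Eed-null replicate 5 the Bmi1 difference fell just short of 2-fold (adjusted p = 0.0019). The share of all calls that were higher in Ezh2-null cells was 35.2%, and 59% after centring.

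None of the 15 other PRC1 genes tested was called between mutant and wild-type cells at any day. The numbers with an unadjusted p under 0.05 were 1, 5, 7 and 5 for Ezh2-null cells at days 0, 2, 6 and 8, and 7, 6 and 8 for Eed-null cells at days 0, 2 and 6. Over all 13807 genes they were 1480, 1262, 4798 and 1767 for Ezh2-null cells, and 6778, 2575 and 3843 for Eed-null cells. Bcor was called for the Eed-null interaction at 1.22 ± 0.32 (adjusted p = 0.0055).

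**Figure D3:**
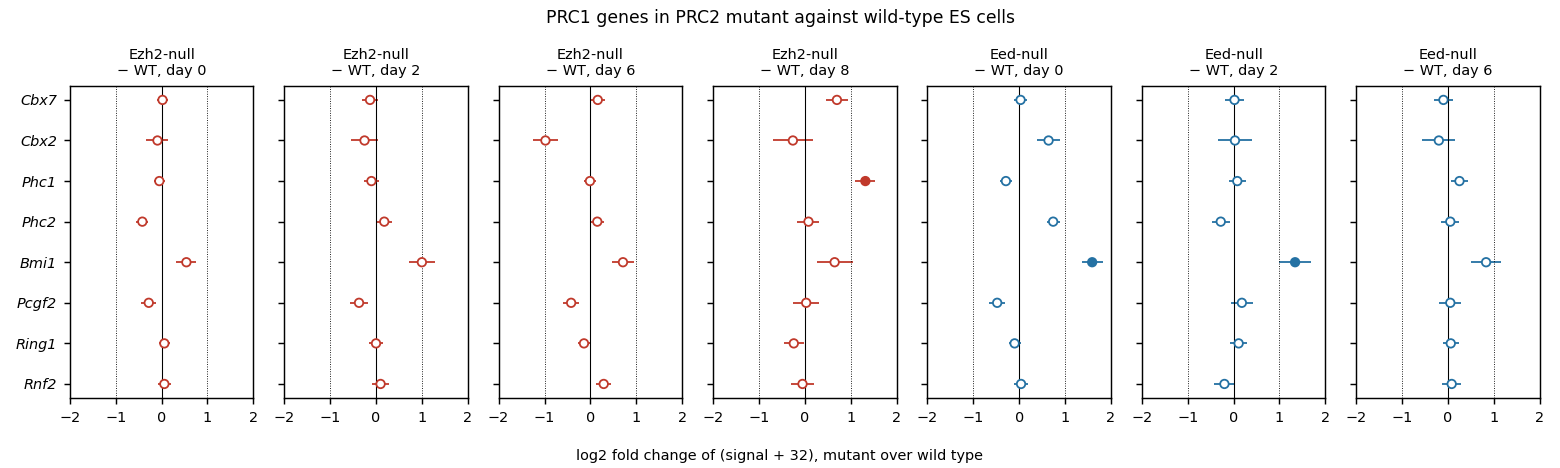
Log2 fold change of signal + 32 in Ezh2-null (red) and Eed-null (blue) against wild-type (WT) cells at each day for the 8 tested members, with bars of 1 SE, dotted lines at 2-fold and filled points for called members. The called points are Phc1 in Ezh2-null cells at day 8 (1.32) and Bmi1 in Eed-null cells at days 0 and 2 (1.59 and 1.34).

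The lineage cells and MEF were compared with wild-type day 0 cells. T-GFP cells had 3 of 8 members called beside 9.5% of all genes, Sox1-GFP cells 5 beside 13.4%, neuronal stem cells 5 beside 23.2% and MEF 5 beside 24.1%. Phc1 was lower and Phc2 and Bmi1 were higher by a called amount in all 4, comparisons that share the wild-type day 0 arrays. The median changes of the 8 members were 0.15, 0.72, 0.05 and -0.39 in that order, against 0.04, 0.07, 0.02 and 0.03 over all genes.

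In T-GFP cells Phc2 read 971 and 1015 (2.02 ± 0.19, adjusted p = 1.3e-11) and Phc1 read 1064 and 1273 (-1.34 ± 0.18, adjusted p = 5.9e-08). Bmi1 read 374 and 334, a change of 1.24 ± 0.32 (adjusted p = 0.0016). The Phc2 and Bmi1 arrays overlapped those of wild-type day 8 cells, and the Phc1 arrays lay above them. Wild-type day 0 replicates 1 to 3 had the lowest Bmi1 of their group, 57 to 116, and summed fibroblast markers of 529 to 571. Against replicates 4 to 7 alone the T-GFP change of Bmi1 was 0.89 ± 0.31 (adjusted p = 0.022), short of 2-fold, and the Eed-null difference at day 0 was 1.25 ± 0.24, still called. Yaf2 was the 1 other PRC1 gene called, at 1.44 ± 0.16. Cbx7 read 491 and 703 and was lower by -0.76 ± 0.19 (adjusted p = 0.0016), which passed 2-fold without T-GFP replicate 2 (adjusted p = 0.003).

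Sox1-GFP progenitors had the highest Cbx2 of all groups, at 1140, 1166 and 1010. The change was 1.83 ± 0.29 (3.55-fold, adjusted p = 1.2e-06), and no other array of the series reached these values. Phc2 read 1632, 1780 and 1559 (2.73 ± 0.16, adjusted p = 2.2e-18) and Bmi1 read 1097, 1114 and 986 (2.75 ± 0.27, adjusted p = 1.4e-11). Ring1 read 177, 152 and 150, a change of 1.07 ± 0.15 (2.10-fold, adjusted p = 8.7e-08), and 0.98 after centring. Cbx7, at 586, 572 and 447, was lower by -0.90 ± 0.17 (adjusted p = 1.6e-05), short of 2-fold. Among the other PRC1 genes Auts2 rose by 2.30 ± 0.21, Yaf2 by 1.94 ± 0.14 and E2f6, a DNA-binding subunit of a variant complex, by 1.44 ± 0.12, all 3 of the 15 that were called.

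Neuronal stem cells had the highest Bmi1 and Phc2 and the lowest Cbx7 and Pcgf2 of the series. Bmi1, known for its role in self-renewal of neural stem cells, read 1836 and 2305, a change of 3.68 ± 0.32 (12.79-fold, adjusted p = 1.5e-13). Phc2 read 2249 and 2564 (3.26 ± 0.19, 9.60-fold, adjusted p = 5.1e-19). Cbx7 read 110 and 96 (-2.96 ± 0.19, 7.77-fold lower, adjusted p = 2.7e-17), and with the mean of its 3 probe sets the change was -0.87. Pcgf2 read 33 and 25, a change of -1.69 ± 0.23 (adjusted p = 2.1e-08). Both of these signals lie below every array median of the series, and with a pseudocount 4 times larger the change was -0.89, no longer called.

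Cbx2 read 430 and 443 in neuronal stem cells, a change of 0.55 ± 0.34 that did not pass (adjusted p = 0.17). Against Sox1-GFP progenitors 4 of 8 members were called, all lower, beside 14.3% of all genes called and 8.79% called lower. They were Cbx7 (-2.06 ± 0.22), Cbx2 (-1.28 ± 0.39, adjusted p = 0.0068), Pcgf2 (-1.19 ± 0.26) and Phc1 (-1.19 ± 0.20). With the larger pseudocount that of Pcgf2 was -0.58, not called. The Cbx2 change became -0.79 with the mean of both probe sets. Of the other PRC1 genes 4 were higher and 4 lower than at wild-type day 0. Pcgf6 fell by 2.39 (SE 0.14), L3mbtl2, a partner of Pcgf6, fell by 1.23 (SE 0.14), and Yaf2 and Cbx6 rose by 1.70 ± 0.16 and 1.15 ± 0.13.

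In MEF, Phc1 read 316 and 300 and Cbx7 121 and 137, changes of -3.16 ± 0.18 (8.91-fold lower, adjusted p = 2e-19) and -2.70 ± 0.19 (6.52-fold lower, adjusted p = 5e-16). Bmi1 read 1039 and 1276 (2.86 ± 0.32, adjusted p = 1.6e-10) and Phc2 only 488 and 574 (1.15 ± 0.19, adjusted p = 1.5e-06). Cbx2, at 177 and 196, lay below every wild-type day 0 array, but the change of -0.55 ± 0.34 did not pass (adjusted p = 0.17). Ring1 read 150 and 157, a change of 1.02 ± 0.18 (adjusted p = 2.8e-06) that became 0.99 without MEF replicate 2, 1.00 and 0.97 without wild-type day 0 replicates 2 and 6, and 0.92 after centring. Cbx6, a Cbx paralogue outside the 9, rose by 2.26 ± 0.13 in MEF, among 3 other PRC1 genes called higher and 3 lower.

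The shift between paralogues can be read within each array as the difference of their log2 values, set to 0 at the wild-type day 0 mean, as a description. Cbx7 minus Cbx2 averaged -1.79 ± 0.18 (SD, n = 5) at wild-type day 6, -2.72 ± 0.10 (n = 3) in Sox1-GFP cells and -3.51 in neuronal stem cells. In Sox1-GFP cells the change of Cbx2 was the larger of the pair, and in neuronal stem cells and MEF that of Cbx7. Ezh2-null day 6 cells spread widely, at -0.65 ± 1.16 (n = 5), and split by array set. They read -1.955 and -1.724 in the first set and -0.516, 0.59 and 0.337 in the second. The difference thus does not remove the array set. Pcgf2 minus Bmi1 at wild-type day 6 likewise read -2.051 and -2.002 in the first set and -0.24, -0.408 and -0.569 in the second. Phc1 minus Phc2 moved further, to -3.69 ± 0.17 at wild-type day 6, -3.96 in Sox1-GFP cells and -5.68 in neuronal stem cells. Pcgf2 minus Bmi1 was -2.07 ± 0.31 (n = 5) in Eed-null day 0 cells, -2.27 in wild-type day 8 cells and -5.36 in neuronal stem cells.

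**Figure D4:**
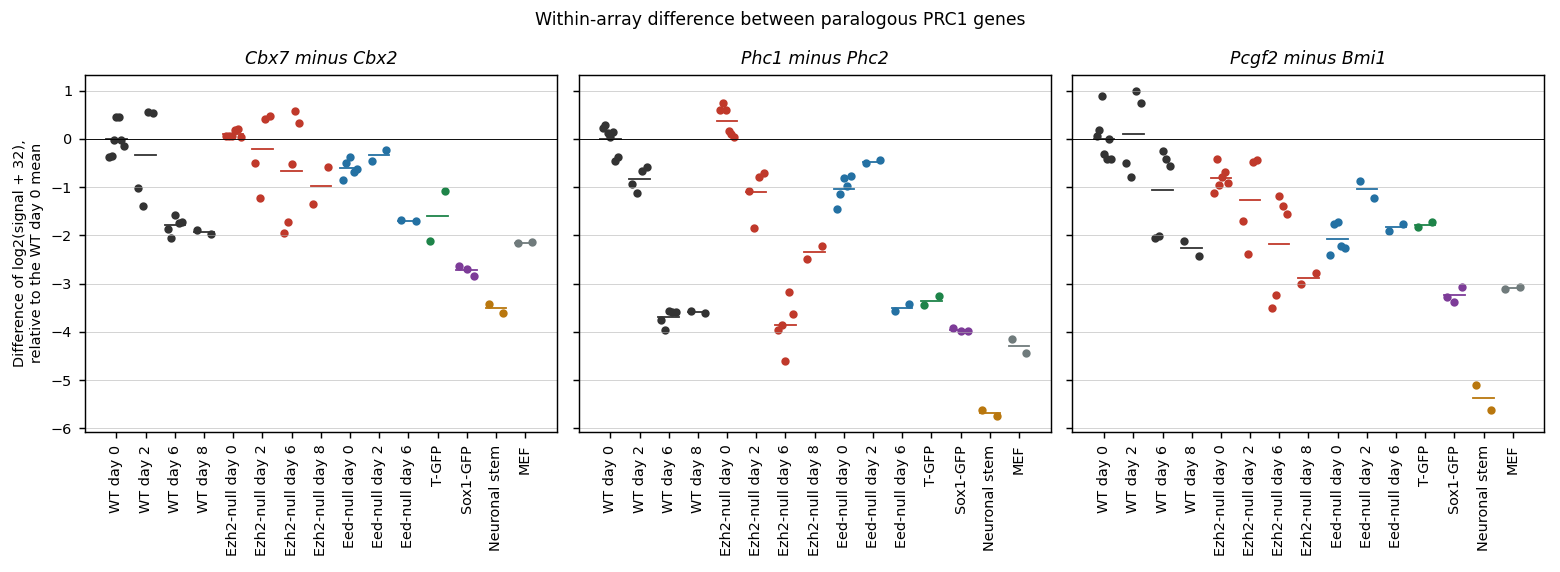
Difference of log2(signal + 32) between paralogous members on each array, relative to the wild-type (WT) day 0 mean, by group, with bars at group means. All 3 differences are lowest in neuronal stem cells, at -3.51 for Cbx7 minus Cbx2, -5.68 for Phc1 minus Phc2 and -5.36 for Pcgf2 minus Bmi1.

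Rnf2, the main catalytic subunit of ES cell PRC1, was called in none of the 20 comparisons. Its group means ran from 854 ± 153 (n = 2) in MEF to 1789 ± 101 (n = 2) in wild-type day 8 cells, and the MEF change of -0.63 ± 0.20 (1.55-fold, adjusted p = 0.0074) passed the p threshold. In wild-type cells it read 1236 and 1325 at day 2 in the first array set and 805 and 784 in the second, with no overlap between the sets.

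Ordered by group mean on the log2 scale, Phc1 was highest in the undifferentiated and day 2 groups and Ezh2-null day 8 cells, whose neighbours overlapped, and lowest in neuronal stem cells and MEF, which did not overlap. Bmi1 ran from neuronal stem cells down through MEF and Sox1-GFP cells, the latter pair overlapping, to wild-type day 0 and day 2 cells. Over the 15 group means, the genes most like Cbx7 by Pearson correlation were L1td1 (0.983), Pou5f1 (0.972) and Taf7 (0.97). Those most like Phc1 were Rfc5 (0.981), L3mbtl2 (0.979) and Nfyb (0.975), and Phc2 was most like Mfhas1 (0.95), Cdh2 (0.945) and Mapk8ip3 (0.944). Cbx2 had lower correlations, with Msi1 (0.897), Ypel1 (0.883) and Olfm1 (0.873). Bmi1 was most like Hoxa3 (0.945), Dennd1a (0.932) and Inafm2 (0.922). For Pcgf2 they were Bsnd (0.95), Ddx41 (0.932) and Ptgis (0.916), for Ring1 Ttc8 (0.969), Cnih1 (0.93) and Asb13 (0.906), and for Rnf2 Lonrf1 (0.919), Hif1an (0.912) and Nlk (0.897). These are descriptions of groups that share cell lines.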

How the data were processed

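The 53 deposited values per probe set are array intensities on a linear scale, per the labels a gene expression measurement from total RNA. The summarisation and scaling that the authors used are not given in the sources used here. Of 45037 probe sets, 34945 carried 1 gene symbol, 932 several and 9160 none, and 34741 symbols were matched by gene ID to GRCm38.p6.

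Each gene was read from the probe set with the highest mean. Genes above the array median on at least 2 arrays were tested, 13807 in all. Group means of log2(intensity + 32) were fitted over all arrays with limma 3.58.1 in R 4.3.3, with 38 residual and 4.6 prior degrees of freedom, and p-values were adjusted over all genes by the Benjamini-Hochberg method. The script was tested on simulated data.

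The array sets come from the first component of differences between the 2 brightest probe sets of 4836 genes, 35.9% of their variance. The second set scored 20.7 to 31.1, other day 2 and day 6 arrays at most -7.7 and arrays of other days at most 10.9.

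Replicate numbers were checked for pairing. Deviations of same-numbered Ezh2-null and wild-type arrays correlated at 0.57 to 0.70 (day 2) and 0.38 to 0.72 (day 6), so these count as pairs, although no label says so and the numbers follow the array sets. Printed values come from the fit without this block unless it is named.

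The members, marker lists, tests and alternatives were chosen with earlier results of these data known. The genes named are all 9 members, at most 4 other PRC1 genes a comparison among those called, by smallest p, the 3 genes most like each member, and Ezh2 and Eed.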

Additional observations from a re-analysis of the deposited data

Results flagged for a closer look

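Of 63 member and group sets of 4 to 10 arrays, 3 held an array far from the others, where chance gives about 1 in 20. Phc1 on wild-type day 6 replicate 5 read 957, against 823 to 848 on the other arrays. Phc1 on Ezh2-null day 6 replicate 3 read 399, against 872 to 1092. Cbx8 on Eed-null day 0 replicate 5 read 45.6, against 25.9 to 30.2, all below the array medians. The change of Phc2 from day 0 to day 6 differed from the wild-type change by 0.58 in Ezh2-null and by -0.69 in Eed-null cells, by limma's interaction test (adjusted p = 0.04 and 0.042). Neither passed the p threshold in every setting. Among other settings, the Ezh2-null value lost it in the second array set (0.39, adjusted p = 0.066), with a replicate block (0.53, adjusted p = 0.12) and against CJ7 alone (0.65, adjusted p = 0.12). The Eed-null value lost it against wild-type day 0 replicates 4 to 7 (-0.55, adjusted p = 0.12) and CJ7 alone (-0.62, adjusted p = 0.19).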

How the results depend on the processing

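The number of members called depended on the settings as follows. With no minimum fold it was 1 at wild-type day 2 (0 with the 2-fold minimum) and 7 at wild-type day 6 (3). It was 6 in Ezh2-null day 6 against day 0 (2) and 2 in Ezh2-null against wild type at day 6 (0). It was 4 in Eed-null against wild type at day 0 (1) and 5 in T-GFP cells (3). Neuronal stem cells against Sox1-GFP progenitors gave 7 (4), and each interaction gave 1 (0). Many of all 13807 genes passed without the fold minimum too, given here as higher and lower in the same order. They were 2307 and 2404, 4381 and 3542, 4639 and 4075, 1736 and 1714, 3326 and 2431, 3074 and 2474, and 2147 and 3631. For the Ezh2-null and Eed-null interactions they were 1099 and 1174, and 1164 and 1317. With the array set as a block the number of members called was 5 at wild-type day 6 and 4 in Ezh2-null day 6 against day 0. Eed-null against wild type at day 6 gave 1. Cbx2 in Eed-null day 6 against day 0 reversed to 1.01 (main value -0.12). All Eed-null day 0 arrays are in the first set and all day 6 arrays in the second, so that value takes its set shift from other genotypes. With the first array set alone the number called was 1 at wild-type day 2 and 5 in Ezh2-null day 6 against day 0. With the second set alone it was 1 for Ezh2-null against wild type at days 2 and 6, Eed-null at day 6 and the Ezh2-null interaction. With CJ7 as the only wild-type line it was 1 in the first 3 of these. A pseudocount 4 times larger left 2 at wild-type day 8 (4), 0 in Eed-null at day 2 (1), 0 between the mutants at day 0 (2) and 3 in MEF (5). A pseudocount of 8, quantile normalisation and centring each gave 1 in Ezh2-null against wild type at day 6, and centring gave 1 between the mutants. The mean of all probe sets gave 0 in Eed-null at day 2, 1 between the mutants and 2 in neuronal stem cells against progenitors. In the last of these Cbx7, Cbx2 and Pcgf2 were no longer called, and Bmi1 was called higher. Fitting only the arrays compared gave 0 in Eed-null at day 2. Leaving out single arrays gave 0 to 1 in Ezh2-null against wild type at days 2 and 6, Eed-null at day 2 and the Ezh2-null interaction, and 1 to 2 between the mutants.

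The replicate block gave 0 members called in Eed-null against wild type at day 2 (Bmi1 0.80), and Cbx7 at wild-type day 8 was -0.79. The block changed no other call of a member. At day 2 it set Eed-null arrays of the second set against same-numbered wild-type arrays of the first. Their deviations correlated at -0.05 to 0.05, so that value mixes array set with genotype. A crossed pairing of Ezh2-null and wild-type day 8 arrays, chosen after seeing the data because same numbers correlated at -0.20, gave 1 member called, as without it. Low signals limit the precision of Cbx8, Ring1 and, in neuronal stem cells, Pcgf2.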
